A study of Mus musculus with 6 samples.

Results

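The interferon response and nucleic acid sensing genes are a set of 50 mouse genes chosen by name: sensors of foreign RNA and DNA and their adaptors, interferon receptors and kinases, the IRF and STAT transcription factors, and interferon-stimulated genes. All 50 had a row in the deposited gene count table, which holds 54532 genes, and 39 of the 50 had enough counts to be tested among 16844 tested genes. Bulk RNA-seq was made from 6 samples labelled NIT-1, a mouse beta-cell line established from an insulinoma of a transgenic NOD mouse. In the EVs group (3 samples) the cells were kept for 16 h with hucMSC-EVs, extracellular vesicles released by mesenchymal stem cells of human umbilical cord, and Tm was then given for 8 h. In the ERS group (3 samples) PBS took the place of the vesicles during the 16 h, and Tm followed for 8 h. Tm is taken here as tunicamycin, which blocks N-linked glycosylation and causes endoplasmic reticulum stress. The ERS samples also carry a treatment label of none; since that goes against their title and the stated design, they were taken as Tm-treated. Both groups carry Tm, and no sample without Tm was analysed here.

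Cells detect viral RNA through the helicases RIG-I (Ddx58) and MDA5 (Ifih1) and the endosomal receptor TLR3, and cytosolic DNA through the STING adaptor (Tmem173). These converge on the kinase TBK1 and the factors IRF3 and IRF7, which switch on type I interferon genes. Secreted interferon binds its receptor, the kinases JAK1 and TYK2 phosphorylate STAT factors, and a complex of STATs with IRF9 binds the interferon-stimulated response element (ISRE) in front of antiviral genes. In islets this pathway is best known from autoimmune diabetes, in which beta cells often carry an interferon signature.

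The libraries held 28654248 to 32550268 counts. The ER chaperone gene Hspa5, chosen to follow ER stress, had 952 ± 5 CPM (counts scaled to library size) in EVs and 10000 ± 256 CPM in ERS (SD, n = 3 each). Ddit3, Xbp1 and Atf4 were lower in EVs as well, with log2 fold changes of -2.91, -1.84 and -0.83. Without a sample lacking Tm, the response to Tm in either group could not be checked. The labelled cell type was not borne out by its markers: Ins2, Iapp and Pdx1 had 0 counts in all 6 libraries, Ins1 had 1 count in all, and 12 of 20 beta-cell markers had at most 3 counts in every library. Markers of other cells ranged from absent to abundant. The summed level of 15 immune markers was 7.10 to 10 CPM in EVs and 5.57 to 7.67 CPM in ERS, that of 11 fibroblast and mesenchymal markers 20 to 22.3 CPM in EVs and 26.1 to 28.4 CPM in ERS, and that of 8 endothelial markers 38.0 to 39.2 CPM in EVs and 39.3 to 40.3 CPM in ERS. Of 10 acinar and ductal markers, summing to 3010 to 3100 CPM in EVs and 2070 to 2160 CPM in ERS, nearly all of the level came from Spp1 (2950 CPM in EVs and 2020 CPM in ERS), while Sox9 had 80.7 CPM in EVs and 62.4 CPM in ERS and Cela1 32.1 CPM in EVs and 27.1 CPM in ERS. These 3 were the tested markers of that list. All were higher in EVs in the edgeR test (adjusted p under 0.05), as were 22.6% of all tested genes. In 2 of the 3 the groups did not overlap. Cpa1, Ptf1a, Krt19 and Amy2a5 were at 0. The endothelial marker Pecam1 had 24.5 CPM in EVs and 28.5 CPM in ERS. The part of these cell types in the results below was not tested. Low counts were even more often than odd: between 1 and 20 counts, 56.3% to 58.2% of the values in a library were even. Separate cultures are not stated for the 3 samples within each group, and the p-values cover the spread among these libraries alone, which may be technical. In bulk samples, fewer cells of a type and less RNA per cell cannot be told apart.

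The ISRE is the sequence feature most tied to these genes, so the promoter stretches of 5 of them are shown first. Each runs 5′ to 3′ on the gene's strand over the 140 bases before the RefSeq start (build GRCm38.p6), with matches to the ISRE motif in capitals: GAAA, any 2 bases, then GAAA, on either strand. Neighbouring matches may overlap. Isg15 and Oas3 are shown as genes that fell, Bst2 and Ifitm2 as genes that rose, and Ifit1 as a classical target that was almost silent.
Isg15 (chr4:156200819-156200958, minus strand): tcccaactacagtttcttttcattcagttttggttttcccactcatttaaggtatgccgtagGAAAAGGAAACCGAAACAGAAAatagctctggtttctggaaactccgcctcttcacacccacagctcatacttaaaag
Oas3 (chr5:120777660-120777799, minus strand): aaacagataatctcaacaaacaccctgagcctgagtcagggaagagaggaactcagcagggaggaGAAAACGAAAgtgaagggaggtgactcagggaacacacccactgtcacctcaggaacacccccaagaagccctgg
Bst2 (chr8:71537473-71537612, minus strand): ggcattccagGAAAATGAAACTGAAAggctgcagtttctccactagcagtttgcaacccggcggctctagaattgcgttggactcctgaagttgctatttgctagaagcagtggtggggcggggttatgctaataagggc
Ifitm2 (chr7:140955962-140956101, minus strand): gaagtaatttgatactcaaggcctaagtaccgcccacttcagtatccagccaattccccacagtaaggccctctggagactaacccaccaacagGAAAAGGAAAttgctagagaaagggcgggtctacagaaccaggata
Ifit1 (chr19:34640749-34640888, plus strand): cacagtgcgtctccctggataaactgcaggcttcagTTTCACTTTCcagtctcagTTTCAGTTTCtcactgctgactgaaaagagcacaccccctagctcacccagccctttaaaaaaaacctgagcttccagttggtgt
The stretch of Isg15 holds 3 overlapping matches, those of Bst2 (overlapping) and Ifit1 (apart) hold 2 each, and those of Oas3 and Ifitm2 hold 1 each.

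Over windows from 250 bases before to 50 bases after the start, 41 of the 50 genes matched an entry in the RefSeq promoter table, and 15 of the 41 (36.6%) held this motif, against 3.99% of all 27025 genes in that table. The genes had been chosen as interferon genes, so this share describes the choice. Of the 15, 8 were tested. Bst2, Ifitm2 and Ifitm3 rose, Ddx58, Isg15, Oas3 and Stat2 fell, and Irf2 did not pass. The other 7 (Ifih1, Ifit1, Ifit3, Oas1a, Rsad2, Gbp2 and Gbp3) had too few counts. Genes with a match were thus found among those that rose, those that fell and those barely transcribed. Of all tested genes 47.4% passed, and a link between the motif and a change was not tested. The motif of STAT dimers, TTCNNNGAA on both strands, was held by 13 of the 41 (31.7%), against 9.55% of all genes. Of these 13, 12 were tested, of which 3 rose and 3 fell. In Bst2 and Ifitm3 the STAT motif overlapped an ISRE match. Dhx58, Tmem173, Usp18, Parp9, Parp14, Oas1b, Oas2, Mx1 and Mx2 matched no entry in the promoter table and were not scanned for either motif.

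As a group, the interferon genes changed about as often as other genes. Of the 39 tested, 9 rose (23.1%), 11 fell (28.2%) and 19 did not pass, where 22.6% of all tested genes were higher in EVs and 24.7% lower (edgeR quasi-likelihood test, Benjamini-Hochberg adjusted p under 0.05 over all tested genes). Taken in either direction, 51.3% passed, against 47.4% of all tested genes. Their median log2 fold change was -0.08, against 0.01 for all tested genes. Of those that passed, 6 genes (15.4% of the 39) differed by 1.5-fold or more, against 14.7% of all tested genes. These shares lie near the background, and what follows describes which genes moved each way. In 25 of the 39 (64.1%) every EVs library lay on one side of every ERS library, against 54.5% of all tested genes, and 6 of these 25 did not pass.

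**Figure D1:**
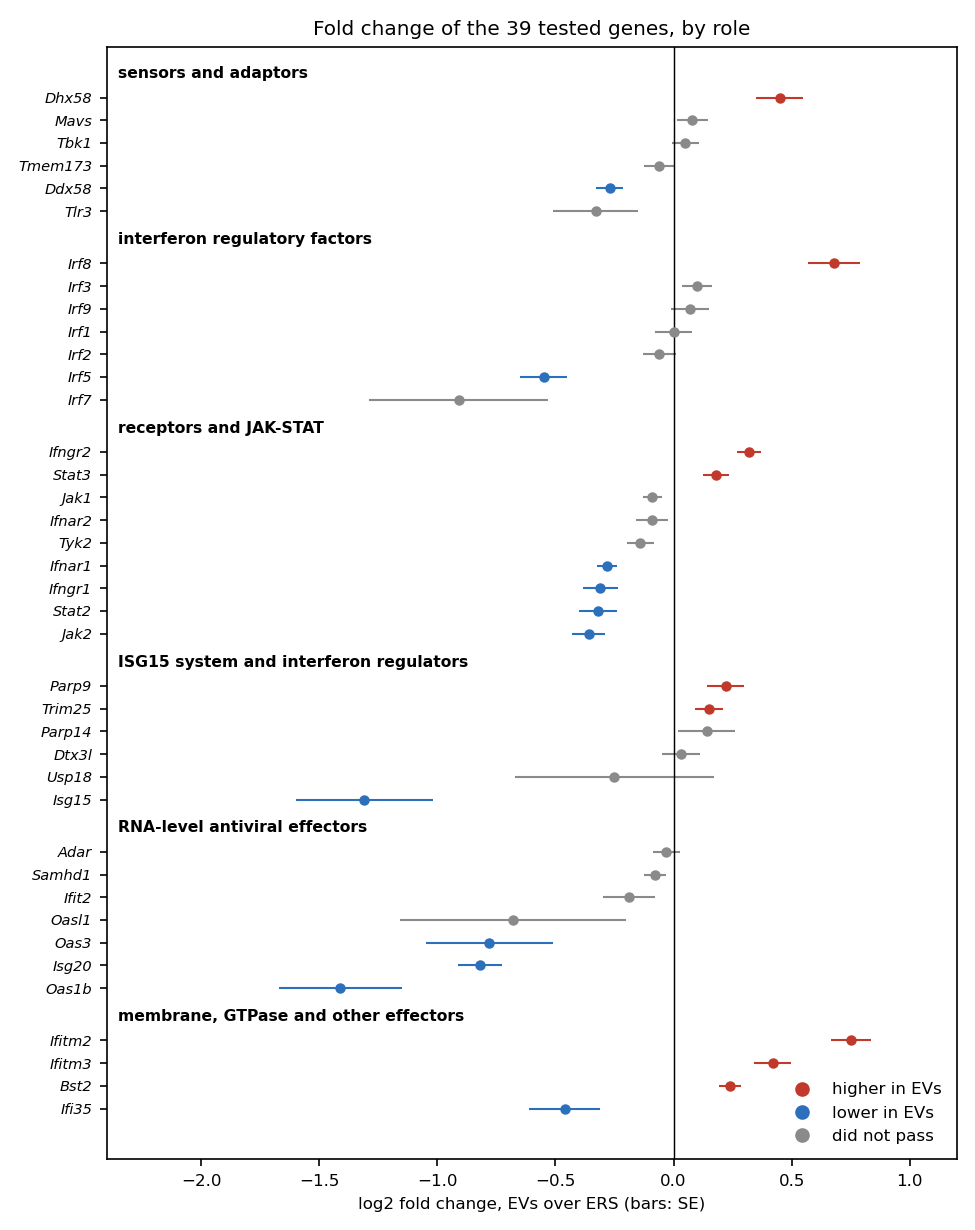
Log2 fold change of EVs over ERS (horizontal axis) of the 39 tested genes, grouped by role, with bars for the SE; red marks genes that rose, blue those that fell and grey those that did not pass. The values run from -1.41 for Oas1b to 0.75 for Ifitm2, and the receptor and kinase genes lie within 0.36 of 0.

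Levels spanned a wide range (CPM per kb of gene length, the scale on which genes are compared here). Bst2, the membrane protein tetherin that holds budding virus at the cell surface, was the most abundant, at 428 CPM per kb in EVs and 361 in ERS. Ifitm3 (68.8 in EVs and 51.5 in ERS) and Ifitm2 (55.2 in EVs and 32.8 in ERS) came next. On the same strand, Gm45717 (0 counts, named after its counts were seen) shares 40.9% of the exon bases of Ifitm2. How reads over both were counted is not stated, so the level of Ifitm2 is uncertain. Averaged over the 6 libraries, 33 of the 50 genes had at least 1 CPM per kb, among them the receptors, kinases, Mavs, Tbk1, Tmem173 and Irf3. At the other end 10 genes were under 0.1 CPM per kb, none of them tested, among them Ifih1, Ifit1, Ifit3, Rsad2, Mx1 and Gbp2. Most genes of the signalling components were thus present, other than Ifih1 at 0, Irf7 at 0.238 and Tlr3 at 0.707 CPM per kb, while several genes known to be strongly interferon-induced were close to absent in both groups.

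**Figure D2:**
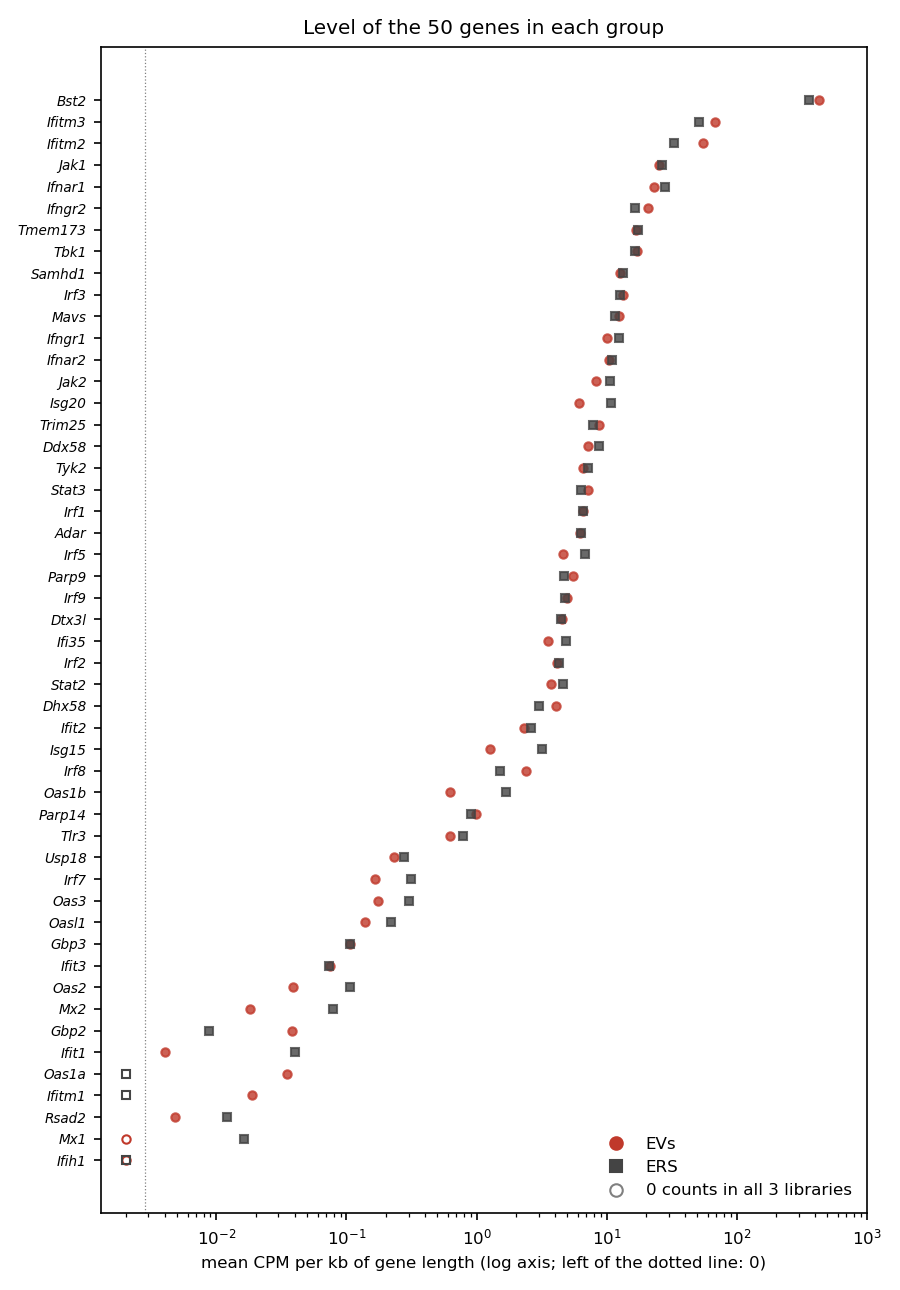
Mean CPM per kb of gene length (log axis) of the 50 genes in EVs (red circles) and ERS (dark squares), in order of their mean over the 6 libraries; open symbols left of the dotted line mark groups with 0 counts in all 3 libraries. Bst2 stands highest, and Ifih1 is at 0 in both groups.

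Among the sensors and adaptors, Ddx58 fell and Dhx58 rose, 4 did not pass and Ifih1 was not tested. For comparison, 47.4% of all tested genes passed. Ddx58 (chromosome 4, 40203773 to 40239828, coordinates of the deposited table, GRCm38) encodes RIG-I, which binds viral RNA ends. It had 50.1, 49.7 and 53.5 CPM in EVs and 61.8, 59.0 and 63.6 CPM in ERS. Every EVs library was lower than every ERS library, with a log2 fold change of -0.27 ± 0.06 (SE, adjusted p = 4.07e-04). Dhx58 (chromosome 11, 100694884 to 100704271) encodes LGP2, a relative of RIG-I without its signalling domain that tunes the other sensors. It had 13.9, 13.9 and 12.7 CPM in EVs and 10.1, 9.84 and 9.71 CPM in ERS, a 1.36-fold higher level (adjusted p = 8.13e-04). The groups did not overlap. On the opposite strand, Dhx58os shares 4.31% of the exon bases of Dhx58; this gene, named after its values were seen, had 4.64 CPM in EVs and 6.19 CPM in ERS. The strand setting of the counting is not given in the sources used here. Ifih1, the MDA5 gene (chromosome 2, 62595798 to 62646255), had 0 counts in all 6 libraries, which allows at most 0.0922 to 0.105 CPM per library, a limit that covers counting error only. Whether both reads of a fragment were counted is not stated; if they were, the limit would be 0.184 to 0.209 CPM.

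The adaptors differed less between the groups. Mavs, the mitochondrial adaptor of RIG-I and MDA5, averaged 41.4 ± 2.5 CPM in EVs and 39.1 ± 1.6 CPM in ERS (SD, n = 3 each). Tmem173, the STING gene, had 38.4 ± 1.5 CPM in EVs and 40.1 ± 1.9 CPM in ERS. Tbk1, the kinase both pathways share, had 66.8 ± 3.8 CPM in EVs and 64.3 ± 3.9 CPM in ERS. In none of these 3 did the groups separate, and the 95% intervals of the log2 fold change ran from -0.05 to 0.22 for Mavs, from -0.20 to 0.07 for Tmem173 and from -0.07 to 0.17 for Tbk1. Tlr3, the endosomal RNA receptor, was low, at 2.99, 3.17 and 3.63 CPM in EVs and 4.28, 4.04 and 3.98 CPM in ERS. Its groups did not overlap, but the test did not pass (log2 fold change -0.33 ± 0.18, SE, adjusted p = 0.146).

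Of the 7 interferon regulatory factors, Irf8 rose, Irf5 fell and 5 did not pass, where 47.4% of all tested genes passed. Irf8 (chromosome 8, 120736358 to 120756694) is best known for directing macrophage and dendritic cell development. It had 17.8, 15.5 and 17.9 CPM in EVs and 11.3, 12.1 and 8.65 CPM in ERS. All 3 EVs libraries lay above the ERS libraries, by a log2 fold change of 0.68 ± 0.11 (SE, adjusted p = 2.39e-05). Over the same libraries the immune marker Cd68, whose groups overlapped, had 5.36 CPM in EVs and 3.84 CPM in ERS and passed the test (adjusted p = 0.0482). The other tested immune markers did not pass: Cd79a had 1.31 CPM in EVs and 1.61 CPM in ERS, and Aif1 0.762 CPM in EVs and 0.889 CPM in ERS. The defining blood-cell marker Ptprc had 4 counts in 1 EVs library and 0 in the other 5 libraries, and Adgre1 had 1 count in all. Itgam had 8, 7 and 23 counts in EVs and 0, 0 and 1 in ERS. Flt3 had 9, 21 and 22 counts in EVs and 10, 6 and 0 in ERS, while Cd3e had 0, 0 and 3 in EVs and 5, 1 and 2 in ERS. The part of immune cells in the Irf8 result was not tested.

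Irf5 (chromosome 6, 29526625 to 29541871), a factor of inflammatory cytokine genes, moved the other way. It had 13.0, 15.1 and 12.3 CPM in EVs and 20.5, 18.1 and 20.7 CPM in ERS. The groups lay apart and the level was 1.47-fold lower in EVs (log2 fold change -0.55 ± 0.10, SE, adjusted p = 4.43e-05). Its exons share 14.1% of their bases with Tnpo3 on the opposite strand, which had 172 CPM in EVs and 188 CPM in ERS and a log2 fold change of -0.13. Tnpo3 was named after its values were seen.

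Irf3 and Irf9, the factors that receive the sensor and the receptor signal, did not pass. Irf3 averaged 46.4 ± 1.6 CPM in EVs and 43.3 ± 2.5 CPM in ERS, and Irf9 26.9 ± 1.1 CPM in EVs and 25.7 ± 2.0 CPM in ERS (SD, n = 3 each). Irf1, an early interferon-gamma target, had a log2 fold change of 0.00 ± 0.08, and Irf2, its antagonist, one of -0.06 ± 0.07 (SE). Irf7, the factor that amplifies type I interferon and is itself interferon-induced, was scarce, with 26, 11 and 21 counts in EVs and 38, 31 and 42 counts in ERS. Its groups did not overlap (log2 fold change -0.91 ± 0.38, SE), and its adjusted p of 0.0543 lay just over the threshold. That side changed with the processing. The adjusted p was 0.0419 with limma-voom, 0.0322 with a stricter count filter, 0.0347 with halved counts and 0.0363 without EVs replicate 1. In all other fits it stayed over 0.05. It was 0.0551 with DESeq2 size factors, 0.0656 with library size alone and 0.0568 with no count filter. With the replicate block it was 0.0543, with the DESeq2 test 0.108, and without any other single library 0.0637 to 0.198. On the opposite strand, Phrf1 shares 1.19% of the exon bases of Irf7. Phrf1, named after its values were seen, had 105 CPM in EVs and 93.2 CPM in ERS.

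Of the 9 receptor and JAK-STAT genes, 2 rose, 4 fell and 3 did not pass, and none had overlapping groups. In all tested genes, 47.4% passed and 54.5% had groups that did not overlap. The differences were small, from -0.36 to 0.32 on the log2 scale. The type I receptor chain Ifnar1 (chromosome 16, 91485238 to 91507441) had 143, 138 and 135 CPM in EVs and 169, 168 and 169 CPM in ERS. It was 1.22-fold lower in EVs (log2 fold change -0.28 ± 0.04, SE, adjusted p = 5.22e-06). Its partner chain Ifnar2 had 34.7, 34.3 and 34.5 CPM in EVs and 38.8, 36.3 and 34.8 CPM in ERS, and did not pass (adjusted p = 0.308). The lowest ERS library of Ifnar2 lay only just above the EVs libraries.

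The 2 chains of the interferon-gamma receptor moved in opposite directions. Ifngr1, the ligand-binding chain (chromosome 10, 19591949 to 19610229), had 26.5, 31.0 and 28.2 CPM in EVs and 34.5, 37.1 and 34.8 CPM in ERS, and fell (log2 fold change -0.31 ± 0.07, SE, adjusted p = 0.00113). Ifngr2, the signal-carrying chain (chromosome 16, 91547072 to 91565623), had 79.4, 76.6 and 77.9 CPM in EVs and 60.8, 64.4 and 62.4 CPM in ERS, and rose (log2 fold change 0.32 ± 0.05, SE, adjusted p = 1.35e-05). Ifngr2 lies on the same stretch of chromosome 16 as Ifnar1 and Ifnar2, and of these 3 neighbours 1 rose, 1 fell and 1 did not pass.

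Of the kinases that sit on these chains, Jak2, used by the interferon-gamma receptor, fell. It had 43.0, 40.0 and 41.3 CPM in EVs and 47.5, 58.1 and 53.7 CPM in ERS (log2 fold change -0.36 ± 0.07, SE, adjusted p = 1.23e-04). Jak1, which serves both receptors, had 187, 178 and 181 CPM in EVs and 198, 194 and 190 CPM in ERS. It did not pass (adjusted p = 0.0719), nor did it with DESeq2 size factors (adjusted p = 0.0831). It passed with the DESeq2 test (adjusted p = 0.0477) and without ERS replicate 3 (adjusted p = 0.0315). Tyk2, the partner of Jak1 at the type I receptor, had 45.1, 46.3 and 43.7 CPM in EVs and 50.9, 48.3 and 49.5 CPM in ERS (adjusted p = 0.0585). All 3 kinases were lower in every EVs library than in every ERS library, by 0.09 to 0.36 on the log2 scale. Of all tested genes, 54.5% had groups that did not overlap. With library size alone in edgeR, the log2 fold change was -0.052 for Jak1 (adjusted p = 0.319) and -0.098 for Tyk2 (adjusted p = 0.182).

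Stat2, which pairs with IRF9 in the type I response, had 21.1, 22.8 and 22.1 CPM in EVs and 29.0, 24.8 and 28.6 CPM in ERS, and fell (log2 fold change -0.32 ± 0.08, SE, adjusted p = 0.00195). Stat3, used mainly by the interleukin-6 family, had 71.7, 67.9 and 66.6 CPM in EVs and 61.4, 58.3 and 62.6 CPM in ERS, and rose (log2 fold change 0.18 ± 0.05, SE, adjusted p = 0.00876). The groups were apart in both genes. The call of Stat3 was lost without EVs replicate 1 (adjusted p = 0.0743) and without ERS replicate 2 (adjusted p = 0.0733).

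**Figure D3:**
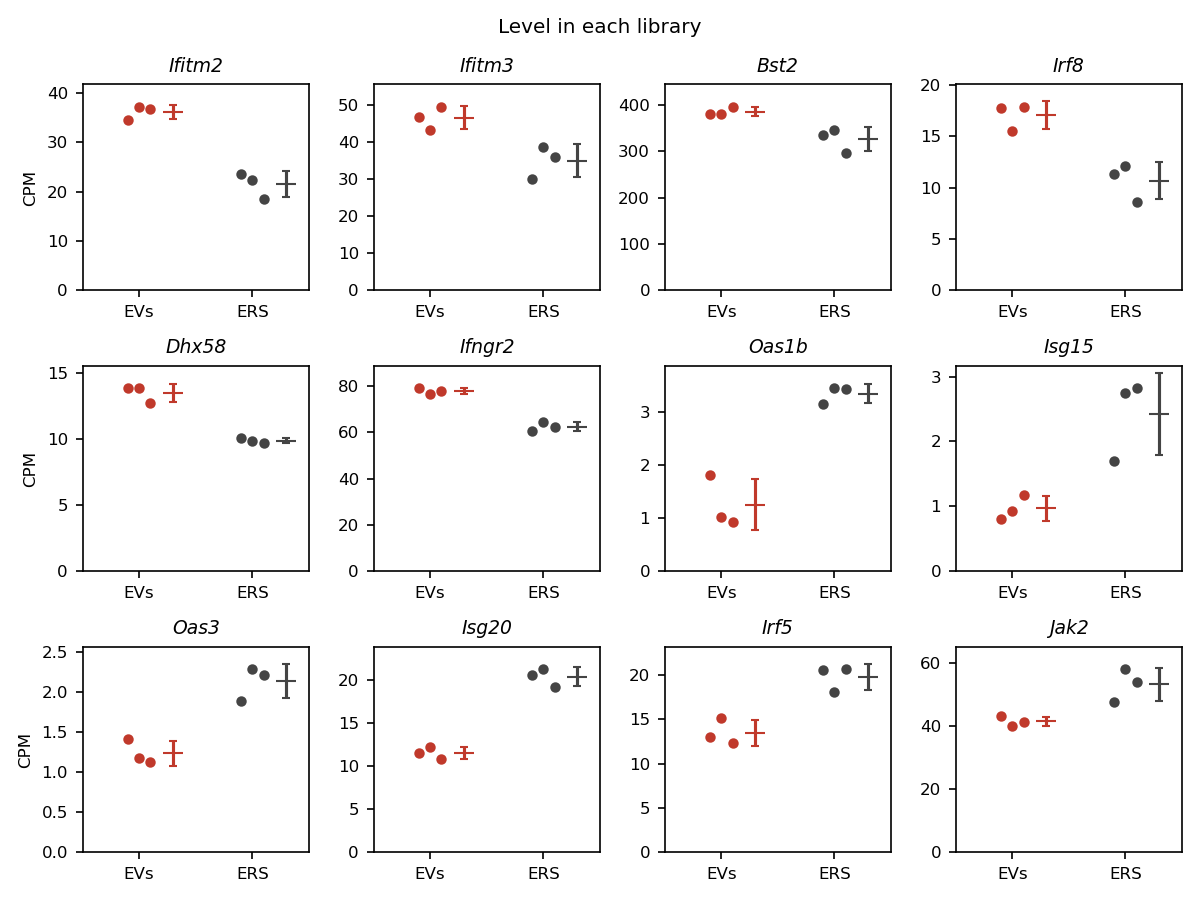
CPM in each library for 12 of the genes that rose or fell, with EVs in red on the left and ERS in dark grey on the right of each panel; the bar beside each group gives its mean and SD (n = 3). In all 12 panels the groups do not overlap, with Ifitm2 at 34.5 to 37.2 CPM in EVs and 18.5 to 23.5 CPM in ERS. This follows largely from the choice of genes, as only 1 of the 20 genes that passed had overlapping groups. Of all tested genes, 54.5% had groups that did not overlap.

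The ISG15 system attaches the ubiquitin-like protein ISG15 to other proteins. Isg15 itself (chromosome 4, 156199424 to 156200818), a classical interferon-stimulated gene with the ISRE matches shown above, had 25, 27 and 38 counts in EVs and 54, 83 and 91 counts in ERS. This came to 0.803, 0.931 and 1.18 CPM in EVs and 1.70, 2.75 and 2.83 CPM in ERS, so the groups did not overlap. It was 2.49-fold lower in EVs (log2 fold change -1.31 ± 0.29, SE, adjusted p = 6.39e-04). Usp18, the protease that removes ISG15 and dampens the type I receptor, had 12, 22 and 26 counts in EVs and 18, 24 and 31 counts in ERS and did not pass, with a wide 95% interval of -1.12 to 0.62 on the log2 scale.

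Other regulators of this kind differed little. Trim25, a ubiquitin ligase of the RIG-I pathway, had 51.0, 51.8 and 48.0 CPM in EVs and 44.1, 45.0 and 46.4 CPM in ERS (log2 fold change 0.15 ± 0.06, SE, adjusted p = 0.0374). This was the weakest of the 20 calls. It was lost with the DESeq2 test (adjusted p = 0.0694), with no count filter (adjusted p = 0.095) and with the replicate block (adjusted p = 0.0616). It was also lost without EVs replicate 1 (0.120) or 2 (0.165) and without ERS replicate 1 (0.105) or 2 (0.112), each an adjusted p. Parp9, an ADP-ribosyltransferase, had 26.7, 27.0 and 26.5 CPM in EVs and 21.2, 24.0 and 23.4 CPM in ERS (log2 fold change 0.22 ± 0.08, SE, adjusted p = 0.0194), a call lost without EVs replicate 2 (adjusted p = 0.0661) and without ERS replicate 1 (adjusted p = 0.10). Its partner Dtx3l, a ubiquitin ligase transcribed from the neighbouring start on the other strand, had 25.9 ± 1.9 CPM in EVs and 25.5 ± 1.4 CPM in ERS (SD, n = 3 each) and did not pass. The genes share 458 exon bases (9.40% of Parp9 and 8.00% of Dtx3l), so their counts are not fully separate. Parp14, a further ADP-ribosyltransferase of this family, had 9.28 ± 0.21 CPM in EVs and 8.43 ± 0.74 CPM in ERS and did not pass either.

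Among effectors that act on RNA, 7 of 12 genes were tested, of which 3 fell and 4 did not pass. This stood beside 22.6% higher and 24.7% lower among all tested genes. Isg20, an exonuclease that degrades RNA (chromosome 7, 78913424 to 78920396), had 11.5, 12.2 and 10.8 CPM in EVs and 20.6, 21.3 and 19.2 CPM in ERS. The groups were far apart relative to their spread (1.77-fold lower in EVs, log2 fold change -0.82 ± 0.09, SE, adjusted p = 7.80e-08). No ISRE match was found in the 3 promoter windows of Isg20, of which 1 holds a TTCNNNGAA match.

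Oligoadenylate synthetases make the messenger that activates RNase L. The set holds 5 genes of this family, 4 in a cluster on chromosome 5 and Oasl1 elsewhere on it, of which mouse Oasl1 and Oas1b are not known as active synthetases. Oas1b (120812635 to 120824163) had 56, 30 and 30 counts in EVs and 100, 104 and 110 counts in ERS, 2.65-fold lower in EVs (log2 fold change -1.41 ± 0.26, SE, adjusted p = 7.73e-05). In the mouse this gene is known for resistance to flaviviruses, many laboratory strains carry a truncated form, and the deposited table lists it as a polymorphic pseudogene. Oas3 (120753098 to 120777661) had 44, 34 and 36 counts in EVs and 60, 69 and 71 counts in ERS (log2 fold change -0.78 ± 0.27, SE, adjusted p = 0.0196). The groups were apart in both, but the Oas3 call was lost without EVs replicate 2 (adjusted p = 0.0513), EVs replicate 3 (0.0609) or ERS replicate 2 (0.0576). Oasl1 had 10, 12 and 11 counts in EVs and 22, 19 and 13 counts in ERS and did not pass (adjusted p = 0.265). Oas2 (5, 4 and 7 counts in EVs and 9, 10 and 26 in ERS) and Oas1a (4, 2 and 0 counts in EVs and 0 in each ERS library) were not tested. These genes have close copies, and how reads with several positions were counted is not stated. The split between copies is uncertain for that reason.

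Of the IFIT genes, whose products bind viral RNA, Ifit2 was the only one with a clear level. It had 9.60, 8.66 and 8.94 CPM in EVs and 10.8, 10.2 and 9.92 CPM in ERS and did not pass (adjusted p = 0.181), although the groups did not overlap. Its neighbours on chromosome 19 were nearly silent, with 1, 0 and 0 counts of Ifit1 in EVs and 5, 5 and 0 in ERS, and 10, 2 and 0 counts of Ifit3 in EVs and 6, 4 and 2 in ERS. Adar, which edits RNA duplexes, had 50.4 ± 0.5 CPM in EVs and 51.7 ± 1.9 CPM in ERS, and Samhd1, which limits the nucleotide pool, 117 ± 3 CPM in EVs and 124 ± 6 CPM in ERS (SD, n = 3 each). Neither passed, with 95% intervals of -0.15 to 0.08 for Adar and -0.18 to 0.02 for Samhd1 on the log2 scale. Chrnb2 on the opposite strand shares 16.8% of the exon bases of Adar. Rsad2, the antiviral enzyme viperin, had 2 counts in EVs libraries together and 5 in ERS libraries together.

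Among the effectors at membranes and the other effectors, 4 of 9 genes were tested, of which 3 rose and 1 fell. Of all tested genes, 22.6% were higher in EVs and 24.7% lower, and 4 genes are too few to describe a group. Ifitm2 had the highest log2 fold change of the 39 tested genes. Ifitm2 and Ifitm3 encode small proteins that block fusion of virus with endosomes, and lie near each other on chromosome 7. Ifitm2 (140954837 to 140955987) had 34.5, 37.2 and 36.7 CPM in EVs and 23.5, 22.4 and 18.5 CPM in ERS, 1.68-fold higher in EVs (log2 fold change 0.75 ± 0.08, SE, adjusted p = 5.28e-08). Ifitm3 (141009586 to 141010770) had 46.9, 43.4 and 49.6 CPM in EVs and 30.0, 38.7 and 36.1 CPM in ERS, 1.34-fold higher (log2 fold change 0.42 ± 0.08, SE, adjusted p = 1.03e-04). In both genes every EVs library lay above every ERS library. Ifitm1, between them on the chromosome, had 2 counts in 1 EVs library and 0 in the other 5 libraries. Reads shared between these similar genes, or between Ifitm2 and Gm45717, could have been split or left out by the counting.

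Bst2 (chromosome 8, 71534255 to 71537456), the most abundant of the set, had 382, 380 and 397 CPM in EVs and 335, 347 and 297 CPM in ERS. It rose by a small factor, 1.18-fold (log2 fold change 0.24 ± 0.05, SE, adjusted p = 1.09e-04), with no overlap of the groups. Ifi35, a cytosolic protein that binds other interferon-induced factors, was the only gene that passed while its groups overlapped: it had 6.39, 6.97 and 5.12 CPM in EVs and 8.52, 10 and 6.87 CPM in ERS (log2 fold change -0.46 ± 0.15, SE, adjusted p = 0.0143). Its call was lost without EVs replicate 3 (adjusted p = 0.10) and without ERS replicate 2 (adjusted p = 0.111).

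The large GTPases were close to absent. Mx1, which traps viral nucleocapsids, had 0 counts in each EVs library and 0, 0 and 6 counts in ERS, and Mx2, listed as a polymorphic pseudogene, 2, 2 and 2 counts in EVs and 10, 3 and 14 counts in ERS. The guanylate-binding protein genes, interferon-gamma targets, had 0, 2 and 7 counts of Gbp2 in EVs and 0, 2 and 0 in ERS, and 18, 6 and 8 counts of Gbp3 in EVs and 6, 18 and 8 in ERS. No fold change is given for these, and with the other untested genes they reached at most 26 counts in any library.

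**Figure D4:**
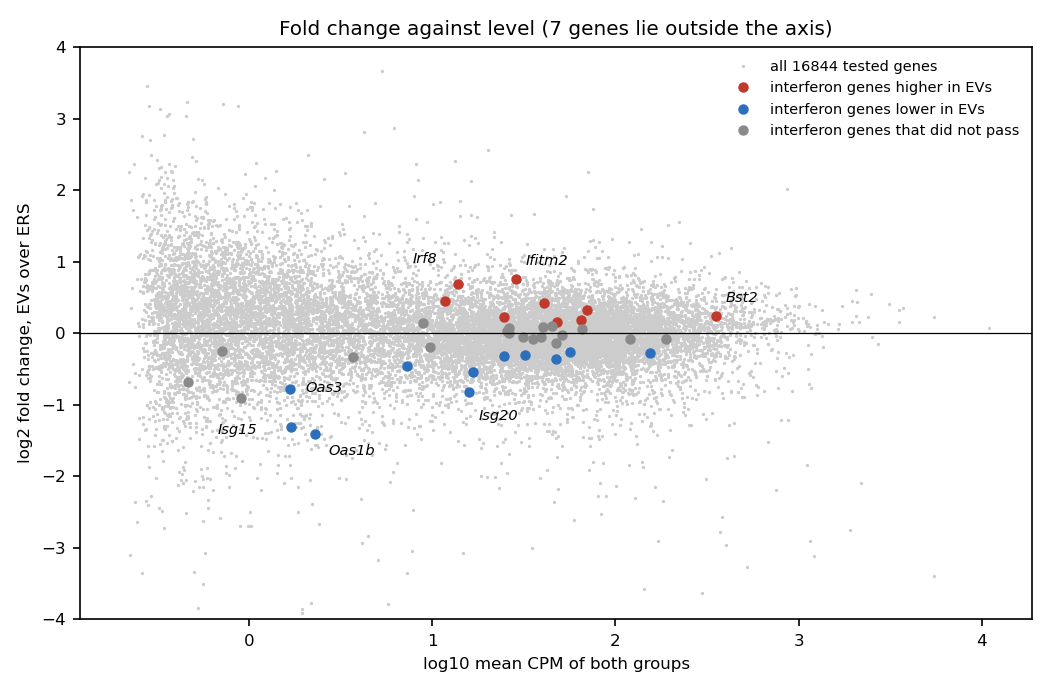
Log2 fold change of EVs over ERS (vertical axis) against the log10 mean CPM of both groups for all 16844 tested genes (light grey) and the 39 tested interferon genes (coloured by call); 7 genes lie outside the axis. The interferon genes lie within the cloud of all genes, those under 10 CPM mostly below 0.

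The wider pathway was described from 3 further lists. Of 21 interferon ligand genes none was tested: 15, among them Ifnb1, had 0 counts in every library, and the most counted, Ifna13, had 15, 20 and 4 counts in EVs and 5, 3 and 0 in ERS (named after its counts were seen). Of 84 other interferon-stimulated genes 59 were tested, of which 10 rose (16.9%), 25 fell (42.4%) and 24 did not pass, beside 22.6% higher and 24.7% lower among all tested genes. Their median log2 fold change was -0.17, against 0.01 for all tested genes. The 4 with the smallest p (adjusted p of 2.89e-11 to 2.21e-09) went both ways. Tor3a, an ATPase of the ER lumen, was 1.75-fold lower, at 46.6 ± 3.3 CPM in EVs and 81.3 ± 2.9 CPM in ERS. Mov10, an RNA helicase, was 1.59-fold higher, Slfn9, of the Schlafen family, 1.68-fold higher, and Pml, the organiser of nuclear bodies, 1.41-fold higher.

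Of 51 other sensing and signalling genes 40 were tested, of which 10 rose (25%), 12 fell (30%) and 18 did not pass (median log2 fold change -0.03). The 4 with the smallest p had adjusted p of 4.60e-12 to 2.80e-08. Rnaseh2c, a subunit of the enzyme that removes RNA from DNA hybrids, was 1.77-fold higher, at 30.5 ± 1.9 CPM in EVs and 17.3 ± 0.7 CPM in ERS (SD, n = 3 each). The RNA helicase gene Dhx9 was 1.53-fold higher, the RNA helicase gene Ddx3x 1.34-fold lower and Ptpn2, a phosphatase that dampens JAK-STAT signalling, 1.45-fold lower. The shares that passed on these lists, 59.3% of the other interferon-stimulated genes and 55.0% of the signalling genes, stood beside 47.4% of all tested genes.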

How the data were processed

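Bulk RNA-seq libraries of 3 EVs and 3 ERS samples were grouped by title. Reads were aligned with HISAT2 2.2.1 per the labels' protocols, and the submitters' processing notes name featureCounts 2.0.6. The authors deposited whole-number counts for each gene, not normalized, together with other values such as gene length in bases. Neither the strand setting nor the handling of multiply placed reads is stated. Although the notes name mm39, 98.33% of gene IDs shared with GENCODE M21 (53585 of 54495), and 49 of the 50 genes described, have the GRCm38 start and end, and coordinates are read as GRCm38.

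Genes were kept by filterByExpr, scaled with TMM factors and tested with edgeR 4.0.16 in R 4.3.3 (quasi-likelihood F test, two-sided, no replicate block), with Benjamini-Hochberg adjustment over all genes tested. Fold changes are EVs over ERS. SEs and 95% intervals (not adjusted for multiple tests) come from the F statistic. CPM uses the TMM-scaled library size, the limits of 3 counts the plain one, and CPM per kb the deposited gene length. Totals of 28654248 to 32550268 counts set the precision. Libraries of a group differed beyond the noise of independent counts (mean chi-square per gene 3.71 to 7.78, on plain totals), and each was kept as a sample. Counting noise would be larger than assumed there if both reads of a fragment were counted. Promoter windows are those of RefSeq (GRCm38.p6). All 50 genes are named, as are up to 4 genes per further list by smallest p. The genes and lists were chosen with earlier results of these data known. Alternatives were DESeq2 1.42.0 (size factors, and its test), limma-voom (limma 3.58.1), library size alone, no count filter, a stricter one (1 CPM in 3 libraries), the replicate block, leaving out each library, an adjusted p under 0.01, a fold minimum of 1.5 and, chosen after the excess of even counts was seen, halved counts.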

Additional observations from a re-analysis of the deposited data

How the results depend on the processing

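The counts of interferon genes that rose (9) and fell (11) stayed within 1.5 times under every alternative except the fold minimum of 1.5, which left 2 higher and 4 lower, and 1222 higher and 1254 lower of all tested genes. Leaving out each library in turn gave 7 to 9 interferon genes higher and 9 to 12 lower, and 3277 to 3616 of all tested genes higher and 3785 to 4092 lower. With the replicate block 8 rose and 11 fell; the call of Trim25 was the only one among these genes that the block changed (adjusted p = 0.0616). Same-numbered libraries did not deviate together over all tested genes (correlations of -0.043, 0.016 and -0.014 for numbers 1, 2 and 3). Whether they share a culture or batch is not stated, and 3 libraries per group are too few to tell. Halved counts gave 9 higher and 12 lower. For single genes, 511 alternative fold changes kept direction and call, 16 lost a call, 6 gained one and 10 changed sign. All 10 were in genes that did not pass. Adar had 0.005 with library size alone, and Usp18 had 0.010 without EVs replicate 1. Dtx3l had -0.021 without ERS replicate 1 and -0.027 without EVs replicate 2. Irf1 had -0.001 with the DESeq2 test and -0.008 with no filter. Without ERS replicates 2 and 3 it had -0.025 and -0.026, and without EVs replicate 1 or 2 it had -0.027. Without each library in turn, Irf1 ran from -0.027 to 0.052, Dtx3l from -0.027 to 0.079 and Usp18 from -0.442 to 0.010. Over its alternatives the adjusted p of Irf7 ran from 0.0322 to 0.198. The cause was not tested. At this depth Irf7, Usp18 and Oasl1 had at most 42 counts in any library and the 11 untested genes at most 26.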
